A study of Mus musculus with 10 samples.

Results

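The genes described here are the 10 that encode the visual pigments and the light-response cascade of mouse cones, found in the count table by their GENCODE M21 symbols (10 of 57010 rows). They are the opsins Opn1mw and Opn1sw, the transducin subunits Gnat2, Gnb3 and Gngt2, the phosphodiesterase subunits Pde6c and Pde6h, the channel subunits Cnga3 and Cngb3, and the arrestin Arr3. All 10 had counts in every library and passed the filter on low counts, as did 15539 genes in all. RNA came from retinas of mice that were aged 6 to 8 weeks and were injected into the vitreous with an adeno-associated virus (AAV) expressing green fluorescent protein (GFP). One group of 5 received AAV2-GFP, the serotype in common use for inner retina, and the other group of 5 received AAV206-GFP, whose capsid the series' title describes as specific for the retinal pigment epithelium. Retinas were taken 14 days later. Both groups carried a vector, and uninjected retinas were not analysed here. Strain, sex and the promoter that drives GFP are not given in the sources used here. The labels do not state in words that each library is 1 mouse, but they describe 5 mice per group and 5 numbered libraries per group.

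Cones are the photoreceptors of daylight and colour vision and are a small minority beside rods in the mouse retina. Light isomerises the retinal bound to the cone opsin, which activates the cone transducin. Its alpha subunit relieves the phosphodiesterase of its inhibitory subunit, cyclic GMP falls, and the cyclic nucleotide-gated channel closes. Cone arrestin then binds the phosphorylated opsin and ends its activity. Mouse cones make a middle-wavelength opsin from Opn1mw and a short-wavelength, ultraviolet-sensitive opsin from Opn1sw, and many cones contain both. The first predominates in dorsal retina and the second in ventral retina, and thyroid hormone acting through its receptor in cones, encoded by Thrb, favours the first over the second.

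The 240 bases from 250 to 11 before the RefSeq transcription start of each cone opsin gene (build GRCm38.p6, printed in the direction of transcription) are shown because the comparison of the opsins is the central one here. Capitals mark matches on either strand to TAATC, the core recognised by the photoreceptor factors CRX and OTX2, or to AGGTCA, the half-site of nuclear receptors such as the thyroid hormone receptor. The Opn1mw stretch is chrX:74127216-74127455 on the plus strand, and that of Opn1sw is chr6:29380524-29380763 on the minus strand.
Opn1mw: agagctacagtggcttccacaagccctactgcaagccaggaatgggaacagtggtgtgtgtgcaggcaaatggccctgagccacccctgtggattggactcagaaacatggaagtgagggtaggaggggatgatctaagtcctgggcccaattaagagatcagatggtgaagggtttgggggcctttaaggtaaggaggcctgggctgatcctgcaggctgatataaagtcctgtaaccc
Opn1sw: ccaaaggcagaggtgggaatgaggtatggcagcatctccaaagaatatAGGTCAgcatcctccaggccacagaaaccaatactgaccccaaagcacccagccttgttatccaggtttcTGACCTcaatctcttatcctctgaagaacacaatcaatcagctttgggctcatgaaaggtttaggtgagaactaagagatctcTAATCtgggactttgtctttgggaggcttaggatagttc
The Opn1sw stretch held AGGTCA at 202 and, on the other strand, at 132 bases before the start, and TAATC at 49 bases before it, with no overlap among them. The Opn1mw stretch held neither, which says only that these letters are not in this window. Of 32851 promoter windows of this length in the RefSeq table, 19.4% held TAATC and 13.5% held AGGTCA. The table had promoters for 6 of the 10 cone genes (7 starts), of which 3 starts, those of Opn1sw, Gnat2 and Arr3, held TAATC and 1, that of Opn1sw, held AGGTCA.

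Levels are given as CPM, counts normalised to library size after scaling by the trimmed mean of M values (TMM), and some libraries stood apart. AAV2-GFP replicates 1 and 4 had the highest interferon scores (mean log2(CPM + 1) of 14 genes, 4.45 and 5.09, against 2.22 to 3.33 in the other 8). Summed microglia and macrophage genes reached 330 CPM among AAV2-GFP retinas (median 54.8) against 24.8 to 36.1 CPM with AAV206-GFP. With edgeR, 10 of 12 tested interferon genes and 2 of 8 microglia genes were lower, against 5.3% of all tested genes. These counts depended on the tool, being 9 and 4 with DESeq2 and 1 and 0 with limma-voom (7 and 2 at an unadjusted p under 0.05). The DESeq2 fit was run without the filter on low counts and held 14 interferon and 11 microglia genes. Lens genes were 10.2 to 30.2 against 1.09 to 12.7 CPM, with Lim2 at 0 in every library. Blood genes were 67.8 to 85.8 against 101 to 319 CPM, and pigment epithelium genes were 14.8 to 44.9 against 17.3 to 26.3 CPM. Summed Müller glia genes were 3840 ± 351 and 3639 ± 276 CPM, and none of 8 passed with edgeR (5 had an unadjusted p under 0.05) or limma-voom, while 3 passed with DESeq2. In AAV206-GFP replicate 4 the summed Y-linked genes were at 114 CPM against 226 to 246 CPM elsewhere. Whether this library holds RNA of more than 1 mouse was not tested. The part of lens, blood and pigment epithelium RNA in the cone gene results was not tested.

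Of the 10 genes 2 were higher with AAV206-GFP, Opn1mw and Gnat2, and 1 was lower, Gngt2 (edgeR quasi-likelihood test, Benjamini-Hochberg adjusted over all tested genes, threshold 0.05). Opn1mw rose 1.38-fold, while Opn1sw stood at 1.04-fold and did not pass. Across all tested genes the same rule called 11.2% (5.95% higher and 5.3% lower), and the median log2 fold change was -0.0095 against 0.07 over the 10 cone genes. The 3 called genes were also the 3 whose groups did not overlap, which was the case for 9.78% of all tested genes (5.41% higher and 4.36% lower). With so few genes, these shares are given as a description only. Without AAV2-GFP replicate 1 and AAV206-GFP replicate 4 the same 3 genes passed.

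Opn1mw (ENSMUSG00000031394, GRCm38 chrX:74127464-74150760, plus strand, protein-coding) is the middle-wavelength pigment gene. Listed by replicate number, the AAV2-GFP retinas had 93.7, 92.7, 86.4, 78.6 and 84.8 CPM, while the AAV206-GFP retinas had 103, 126, 118, 132 and 125 CPM. The lowest AAV206-GFP retina, replicate 1, lay above the highest AAV2-GFP retina, so the groups did not overlap. The mean went from 87.2 ± 6.15 to 121 ± 11.3 CPM (SD, n = 5). The log2 difference, here and throughout the log2 fold change of AAV206-GFP over AAV2-GFP in the edgeR fit with its standard error (SE), was 0.47 (SE 0.07), with a 95% interval of 1.24- to 1.54-fold (edgeR adjusted p = 0.000881). It passed in each of the 10 fits that left out 1 library and in the other 15 fits tried. The sources used here do not say whether counting used strand, so reads of the opposite strand cannot be told apart from those of a cone gene.

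Opn1sw (ENSMUSG00000058831, GRCm38 chr6:29376671-29388468, minus strand, protein-coding) is the short-wavelength pigment gene. Its levels were 315, 348, 322, 334 and 340 CPM with AAV2-GFP and 329, 350, 342, 352 and 352 CPM with AAV206-GFP. The groups overlapped, with AAV2-GFP replicate 2 above 2 of the AAV206-GFP retinas. The means were 332 ± 13.4 and 345 ± 9.74 CPM (SD, n = 5), and the 95% interval of the ratio ran from 0.963 to 1.12 (log2 difference 0.06, SE 0.05, edgeR adjusted p = 0.514). It shares 397 exonic bases with Calu, a calcium-binding protein gene on the opposite strand, which was not called (log2 difference 0.17, edgeR adjusted p = 0.105).

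**Figure D1:**
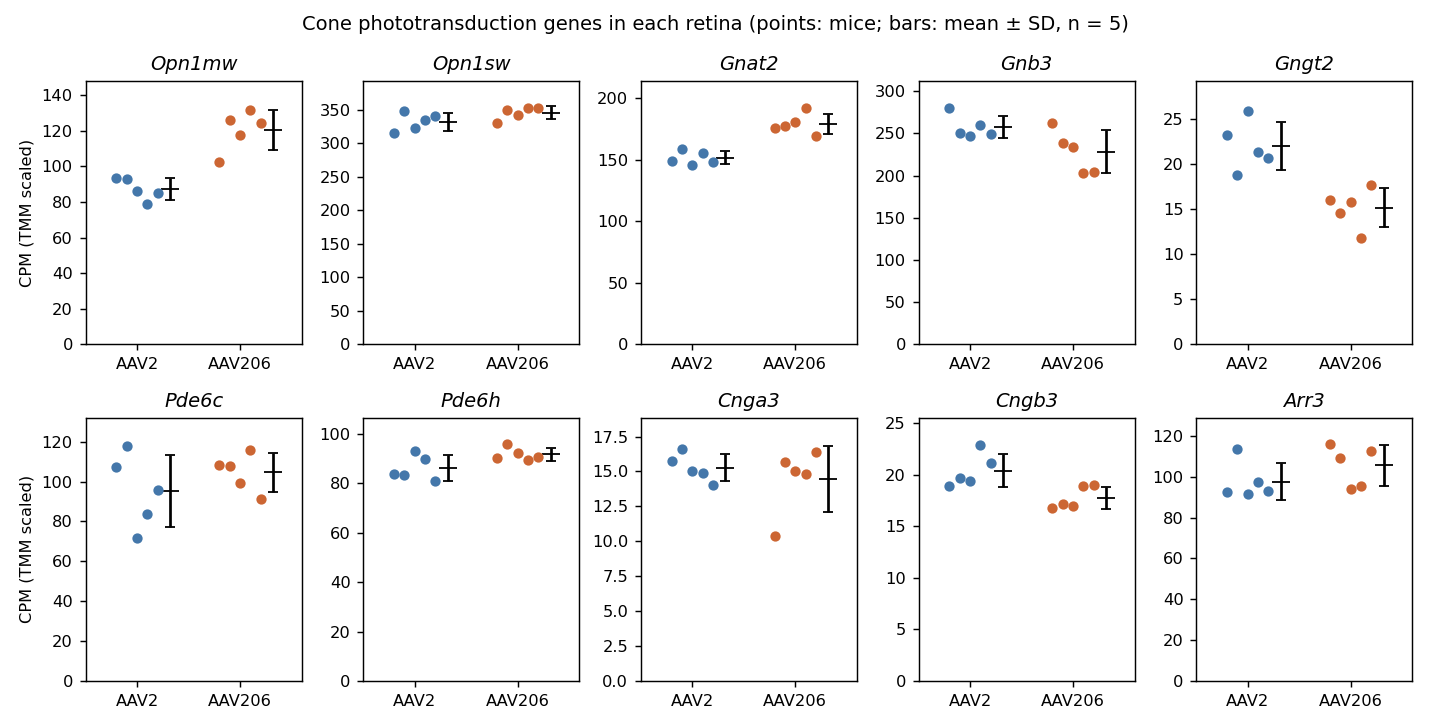
Level of each cone gene in every retina, in CPM after TMM scaling on axes that start at 0. Points are the 5 libraries of a group, left to right by replicate number, and black bars are the mean with its SD. The groups do not overlap for Opn1mw, Gnat2 and Gngt2 and overlap for the other 7 genes.

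The opsins were then compared within each retina, which removes library size and scaling. Opn1mw counts were 0.297, 0.266, 0.268, 0.235 and 0.249 of the Opn1sw counts in the AAV2-GFP retinas and 0.312, 0.361, 0.344, 0.374 and 0.354 in the AAV206-GFP retinas. Every AAV206-GFP retina had a higher ratio than every AAV2-GFP retina. The log2 ratio was -1.93 ± 0.13 and -1.52 ± 0.10 (SD, n = 5), a difference of 0.41 with a standard error of 0.07, or a 1.33-fold higher ratio (exact permutation test over all relabellings of the 10 retinas, two-sided, p = 0.00794, the smallest this design can give). This test was the 1 of its kind and was chosen with the rise of Opn1mw known, so it is not independent evidence of it. The difference was 0.45 without AAV2-GFP replicate 1, 0.38 without AAV206-GFP replicate 4 and 0.43 without both of them (exact permutation p = 0.0286).

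As a share of both opsins' counts, Opn1mw made up 20.8% ± 1.45 in AAV2-GFP retinas and 25.9% ± 1.31 in AAV206-GFP retinas (SD, n = 5). The highest AAV2-GFP retina, replicate 1, had 22.9% (exact Clopper-Pearson 95% interval 21.7% to 24.2%), and the lowest AAV206-GFP retina, replicate 1, had 23.8% (22.6% to 25.0%). These 2 retinas are therefore not separated by counting error, which is all that the intervals cover, while the share of AAV2-GFP replicate 4, 19.1% (17.98% to 20.2%), lies below every AAV206-GFP interval. Set against the summed level of the 7 cone genes other than the opsins and Gnb3, Opn1mw was higher by 0.35 on the log2 scale with AAV206-GFP (-2.14 ± 0.14 against -2.49 ± 0.09). Opn1sw set against the same sum moved by -0.06 (-0.62 ± 0.05 against -0.56 ± 0.06). In whole retina, fewer cells of a type and less RNA per cell cannot be told apart.

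**Figure D2:**
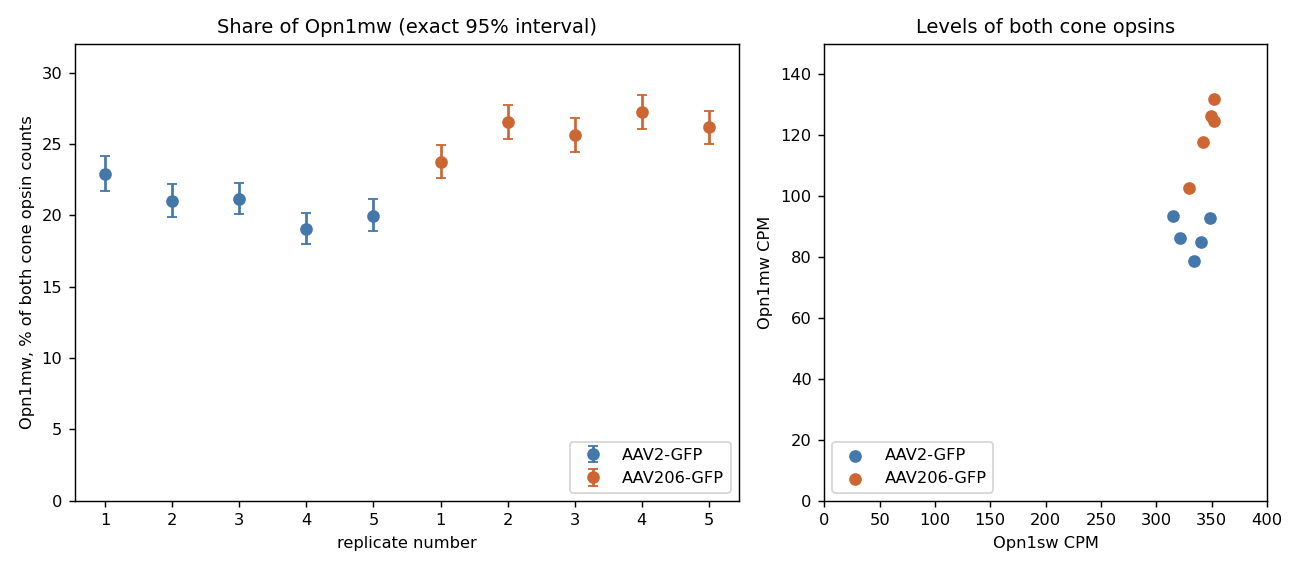
Left, the share of Opn1mw in the counts of both cone opsins in each retina, in percent, with exact 95% counting intervals; right, the CPM of Opn1mw against that of Opn1sw. The shares of the AAV2-GFP retinas lie between 19.1% and 22.9% and those of the AAV206-GFP retinas between 23.8% and 27.2%, while the Opn1sw levels of the groups overlap.

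Gnat2 (ENSMUSG00000009108, chr3:108092789-108101432, plus strand) encodes the alpha subunit of cone transducin, which carries the signal from the opsin. The AAV2-GFP retinas had 149, 159, 146, 156 and 148 CPM and the AAV206-GFP retinas 176, 178, 181, 192 and 170 CPM. All AAV206-GFP retinas were above all AAV2-GFP retinas. The mean rose from 152 ± 5.39 to 179 ± 8.37 CPM (SD, n = 5), and the log2 difference was 0.24 (SE 0.06, edgeR adjusted p = 0.0123). The call was lost in 4 of the 15 fits other than those that left out 1 library (adjusted p up to 0.101). These were the fits with the interferon score, the microglia score or the transcript length index of each library (the level of genes with short against long transcripts) as a covariate and the fit without AAV2-GFP replicates 1 and 4. The log2 difference in them was 0.24, 0.22, 0.19 and 0.24, in that order.

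Gngt2 (ENSMUSG00000038811, chr11:95837216-95845734, plus strand) encodes the gamma subunit of cone transducin, which holds the complex at the membrane. It had 23.2, 18.9, 25.9, 21.4 and 20.8 CPM with AAV2-GFP and 16.0, 14.6, 15.9, 11.8 and 17.7 CPM with AAV206-GFP. The groups did not overlap, although AAV206-GFP replicate 5 came close to AAV2-GFP replicate 2. The mean fell from 22.03 ± 2.67 to 15.2 ± 2.18 CPM (SD, n = 5), and the log2 difference was -0.53 (SE 0.12, edgeR adjusted p = 0.00902). The call was lost with each of the 3 covariates named for Gnat2 (adjusted p up to 0.152), where the log2 difference was -0.47, -0.45 and -0.32. Its exons share 234 bases with Abi3, a gene of the opposite strand known from microglia. The counts of Abi3 carried decimals in all 10 libraries and those of Gngt2 in 0. Abi3 stood at 7.02 ± 2.84 and 5.41 ± 1.44 CPM and was not called (log2 difference -0.37, edgeR adjusted p = 0.370). Whether reads over that stretch were shared between the 2 genes was not tested.

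Gnb3 (ENSMUSG00000023439, chr6:124834240-124840275, minus strand) encodes the beta subunit of cone transducin and is also made by ON bipolar cells, so its level is not that of cones alone. The AAV2-GFP retinas had 280, 251, 247, 260 and 250 CPM and the AAV206-GFP retinas 262, 239, 234, 203 and 204 CPM. Replicate 1 was the highest of its group in both, and through it the groups overlapped. The log2 difference was -0.17 (SE 0.07, edgeR adjusted p = 0.136). Without AAV206-GFP replicate 1 it was -0.23 and just passed (edgeR adjusted p = 0.0499). Of 11 ON bipolar genes 1 passed, Grm6, the glutamate receptor of these cells, which was lower (165 ± 22.1 and 105 ± 19.1 CPM, log2 difference -0.66, edgeR adjusted p = 0.00225) with overlapping groups and decimals in all 10 libraries. The called share was 9.09%, against 11.2% of all tested genes. The median of the 11 was -0.11, and their summed level was 1149 to 1472 CPM with AAV2-GFP and 1002 to 1496 CPM with AAV206-GFP. The 3 subunits of 1 transducin thus had fold changes of 1.18, 0.887 and 0.690.

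Neither phosphodiesterase gene passed. Pde6c (ENSMUSG00000024992, chr19:38132781-38183958, plus strand), the catalytic subunit, had 107, 118, 71.9, 83.7 and 96.0 CPM with AAV2-GFP and 109, 108, 99.4, 116 and 91.1 CPM with AAV206-GFP. Relative to its mean it had the widest spread of the 10 genes within AAV2-GFP, through low levels in replicates 3 and 4, and its ratio between groups was 1.098 (95% interval 0.934 to 1.29, edgeR adjusted p = 0.447). Pde6h (ENSMUSG00000064330, chr6:136923832-136968865, plus strand), the inhibitory subunit, lay between 81.0 and 93.3 CPM with AAV2-GFP and between 89.6 and 96.1 CPM with AAV206-GFP. Its ratio was 1.06 (95% interval 0.978 to 1.16, edgeR adjusted p = 0.321). It shares 136 exonic bases with Arhgdib, an opposite-strand gene of blood cells that did not pass (edgeR adjusted p = 0.169).

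Neither channel gene was called. Cnga3 (ENSMUSG00000026114, chr1:37214434-37263384, plus strand), the alpha subunit, lay between 14.01 and 16.6 CPM with AAV2-GFP. With AAV206-GFP it had 10.3, 15.7, 15.0, 14.8 and 16.4 CPM, replicate 1 being apart from the rest. Its log2 fold change was -0.08 (edgeR adjusted p = 0.712) and turned to 0.0199 without that retina. Cngb3 (ENSMUSG00000056494, chr4:19280850-19510623, plus strand), the modulatory subunit, had 18.9, 19.7, 19.4, 22.9 and 21.2 CPM with AAV2-GFP and 16.7, 17.1, 17.0, 18.9 and 19.0 CPM with AAV206-GFP. The overlap was confined to the lowest AAV2-GFP retina and the 2 highest AAV206-GFP retinas, and the log2 difference of -0.20 did not pass adjustment (SE 0.09, edgeR adjusted p = 0.159).

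Arr3 (ENSMUSG00000060890, chrX:100605497-100618493, plus strand), the cone arrestin, had 92.3, 114, 91.8, 97.6 and 93.0 CPM with AAV2-GFP and 116, 109, 94.0, 95.7 and 113 CPM with AAV206-GFP. The ranges of the groups were nearly the same, and the ratio was 1.08 (95% interval 0.964 to 1.21, edgeR adjusted p = 0.364).

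Levels of different genes were compared as CPM per kilobase of the principal transcript in GENCODE M21. Opn1sw had 140 and Gnb3 132 CPM per kilobase on average over the 10 libraries, with overlapping ranges. Opn1mw followed at 84.7 (64.1 to 107), Gnat2 at 80.6 (71.2 to 93.7) and Arr3 at 74.8 (67.5 to 85.2), and neighbours among these 3 overlapped as well. The order within these overlapping genes differed by group. With AAV2-GFP the means were 139.5 for Gnb3, 138 for Opn1sw, 73.8 for Gnat2, 71.9 for Arr3 and 71.1 for Opn1mw, and with AAV206-GFP they were 124, 143, 87.3, 77.7 and 98.3. Pde6c was at 38.7, below all of these in every library. Pde6h at 15.0 and Gngt2 at 11.7 overlapped, as did Cnga3 at 4.18 and Cngb3 at 4.05. With the length of all exons in place of the principal transcript the order was the same except that Cngb3 and Cnga3 changed places. The length assumed for Pde6h, 5.94 kb, is the longest of the 10, and a shorter transcript in use would place this gene higher.

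Rod counterparts of these genes give the same step of the cascade in the major photoreceptor. For the 9 rod genes reported, 2 fell and the other 7 were not called, with a median log2 fold change of -0.05. The called share was 22.2%, against 5.3% of all tested genes called lower and 11.2% called either way. Gngt1, the rod transducin gamma subunit and counterpart of Gngt2, fell with no overlap (log2 difference -0.47, SE 0.09, edgeR adjusted p = 0.00387). With the length index as a covariate it was -0.25 and still passed (edgeR adjusted p = 0.0469). Pde6g, the rod inhibitory subunit and counterpart of Pde6h, also fell (log2 difference -0.28, SE 0.07, edgeR adjusted p = 0.0244), with overlapping groups. That call was lost without AAV2-GFP replicate 4 or AAV206-GFP replicate 2, 3 or 4 (edgeR adjusted p 0.0535 to 0.0671) and with the interferon score (-0.30, adjusted p = 0.0834) or the length index (-0.13, adjusted p = 0.294) as a covariate. Gnat1, the counterpart of Gnat2, had a log2 fold change of -0.15 (edgeR adjusted p = 0.0612), and it passed with DESeq2 (adjusted p = 0.0324), with library sizes only (edgeR adjusted p = 0.0333) and without AAV206-GFP replicate 5 (edgeR adjusted p = 0.0233). Gnb1, Pde6a, Pde6b, Cnga1, Cngb1 and Sag were not called, their log2 differences being 0.07, 0.18, -0.05, 0.12, -0.12 and 0.02.

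Set against its rod partner within each retina, Gnat2 over Gnat1 was higher with AAV206-GFP by 0.39 on the log2 scale and Pde6h over Pde6g by 0.37, both without overlap of the groups. The other 7 of the 9 pairs overlapped, with differences between -0.25 and 0.20. These pairs were not tested.

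**Figure D3:**
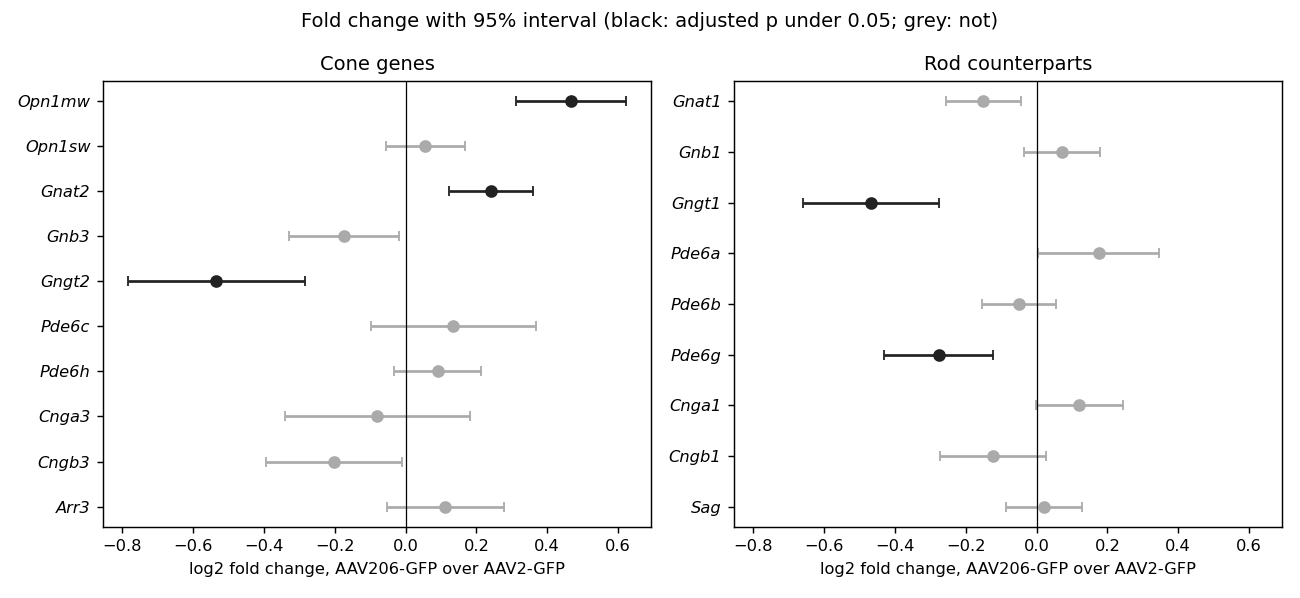
Log2 fold change of AAV206-GFP over AAV2-GFP for the 10 cone genes and 9 rod counterparts, with 95% intervals from the edgeR fit. Black points passed an adjusted p of 0.05; Opn1mw at 0.47 and Gnat2 at 0.24 lie above 0 and Gngt2 at -0.53 below it, while Gngt1 is at -0.47 and Pde6g at -0.28.

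Of 14 genes listed for shut-off and recovery of the response and for related photoreceptor functions, 5 passed, 3 higher and 2 lower. This was 35.7%, against 11.2% of all tested genes, and the median log2 fold change of the 14 was 0.05. Gnb5 and Rgs9 encode parts of the complex that speeds hydrolysis of GTP by transducin and so ends the response. Gnb5 rose from 615 ± 39.8 to 862 ± 38.3 CPM (log2 difference 0.49, SE 0.06, edgeR adjusted p = 7.8e-05), with decimals in 9 of the 10 libraries. Rgs9 had 591, 685, 281, 335 and 491 CPM with AAV2-GFP and 689 to 928 CPM with AAV206-GFP (log2 difference 0.79, SE 0.18, edgeR adjusted p = 0.0132), and its groups just failed to overlap. Its call was lost with robust dispersions (edgeR adjusted p = 0.0793), with the interferon score (0.62, adjusted p = 0.121) and with the length index (0.39, adjusted p = 0.146). Rcvrn, the calcium sensor of the opsin kinase, fell from 873 ± 32.5 to 734 ± 32.4 CPM (log2 difference -0.25, SE 0.05, edgeR adjusted p = 0.00643), and just missed the threshold with the length index (-0.21, edgeR adjusted p = 0.0519).

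Among 16 regulators of photoreceptor and cone identity 2 were higher and 2 lower (25%, against 11.2% of all tested genes), with a median of -0.02. Samd7, a repressor of non-rod genes in rods, rose from 107 ± 3.82 to 141 ± 14.2 CPM (log2 difference 0.40, SE 0.07, edgeR adjusted p = 0.00170). Nr2e3, a rod factor that represses cone genes, rose (log2 difference 0.25, edgeR adjusted p = 0.0446). This call was lost in 14 of 25 alternatives, among them those without AAV2-GFP replicate 1, 3 or 4 or AAV206-GFP replicate 1, 3, 4 or 5 (log2 difference 0.20 to 0.28, edgeR adjusted p 0.0531 to 0.0946). Nr2f1, a nuclear receptor of dorsal-ventral opsin patterning, fell from 23.7 ± 1.38 to 17.5 ± 1.29 CPM (log2 difference -0.44, SE 0.09, edgeR adjusted p = 0.00451), and Neurod1, a neuronal factor that photoreceptors keep, fell (log2 difference -0.25, edgeR adjusted p = 0.0166). The call of Nr2f1 was lost with the interferon score (-0.40, edgeR adjusted p = 0.0541), and that of Neurod1 in 5 alternatives (-0.24 to -0.20, edgeR adjusted p 0.0736 to 0.110). Thrb was not called at 77.7 ± 11.2 and 91.4 ± 6.04 CPM (log2 difference 0.23, edgeR adjusted p = 0.0966), and its difference ranged from 0.06 with the length index (edgeR adjusted p = 0.775) to 0.31 without AAV2-GFP replicates 1 and 4. Without AAV2-GFP replicate 1 it was 0.30 and passed (edgeR adjusted p = 0.0266). Rxrg, Crx and Nrl were not called either, their log2 differences being -0.04, 0.07 and -0.12. Nrl ranged from -0.17 without AAV206-GFP replicate 5, where it passed (edgeR adjusted p = 0.0475), to -0.05 with the length index (edgeR adjusted p = 0.748).

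Of 6 tested genes of thyroid hormone supply and response 1 passed, Klf9, a hormone-induced transcription factor that other signals induce too (136 ± 9.11 and 163 ± 9.45 CPM, log2 difference 0.26, edgeR adjusted p = 0.0174), a call lost with the interferon score, where the difference was 0.28 (adjusted p = 0.0683), or the length index, where it was 0.18 (adjusted p = 0.179). The called share was 16.7%, against 11.2% of all tested genes, and the median of the 6 was 0.06. The opsins differ along the dorsal-ventral axis, so genes patterned on it were examined, with medians of -0.10 for the dorsal and -0.26 for the ventral list. None of 6 dorsal genes passed with edgeR, DESeq2 or limma-voom (1 had an unadjusted p under 0.05 with each), and their summed level was 187 ± 19.1 and 183 ± 15.3 CPM. Of 3 tested ventral genes 1 passed (33.3%, against 11.2% of all tested genes), and 1 passed with DESeq2 and with limma-voom as well. All 3 had negative log2 fold changes with edgeR, and 2 had an unadjusted p under 0.05 with edgeR and with limma-voom. With DESeq2, run without the filter on low counts, 3 had an unadjusted p under 0.05, and 3 changes were negative and 1 positive. Vax2, which sets ventral identity, fell from 31.7 ± 2.73 to 25.1 ± 2.91 CPM (log2 difference -0.34, edgeR adjusted p = 0.0311). This call was lost in 11 of 25 alternatives, among them those without AAV2-GFP replicate 3 or 4 or AAV206-GFP replicate 1, 2, 3 or 4 (log2 difference -0.35 to -0.27, edgeR adjusted p 0.0513 to 0.0860). The summed level of the ventral genes was 72.0 to 90.6 CPM with AAV2-GFP and 62.9 to 72.8 CPM with AAV206-GFP, and the part of regional composition in the opsin ratio was not tested.

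Other genes listed as enriched in cones did not pass. Of 5 tested (Kcne2, Ccdc136, Gulo, Fam19a3 and Kcnv2) none had an adjusted p under 0.05 with edgeR, DESeq2 or limma-voom, and none had an unadjusted p under 0.05. Their median log2 fold change was 0.02 and their summed level 1117 ± 41.8 and 1100 ± 54.8 CPM (SD, n = 5). Kcnv2 made up most of this sum, at 852 ± 33.8 and 817 ± 74.7 CPM, so the sum mainly follows that gene. How much of the Kcnv2 RNA came from cones was not tested. Clca3a2, also listed, was under the filter.

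Libraries also differed by transcript length, and several cone genes moved with this. The length index of a library was taken as the median deviation of log2(CPM + 1) over 399 genes with transcripts under 1 kb, minus that over 3873 genes of at least 4 kb. It averaged 0.13 ± 0.23 in AAV2-GFP and -0.13 ± 0.12 in AAV206-GFP libraries (SD, n = 5), highest in AAV2-GFP replicate 3 (0.52) and lowest in AAV206-GFP replicate 4 (-0.34). Among tested genes with a principal transcript in the annotation, the median log2 fold change was -0.21 for transcripts under 1 kb, -0.10 for 1 to 2 kb, -0.02 for 2 to 4 kb and 0.05 over 4 kb. AAV2-GFP replicate 3 had the highest Gngt2 and the lowest Pde6c of all 10 libraries, and AAV206-GFP replicate 4 had the lowest Gngt2 and the highest Gnat2. AAV206-GFP replicate 4 also had the highest Opn1mw (132 CPM), Opn1sw (352 CPM) and ratio of Opn1mw to Opn1sw (0.374), and the lowest Gnb3 (203 CPM). AAV2-GFP replicate 3 lay inside the range of its group for Opn1mw (86.4 CPM) and for the ratio (0.268). Within groups, the Pearson r of log2(CPM + 1) with the index over the 10 libraries was 0.83 for Gngt2, 0.77 for Pde6h, -0.65 for Gnat2, -0.89 for Pde6c, -0.48 for Opn1sw and -0.39 for Opn1mw, and between -0.15 and 0.07 for the other 4 genes, given as a description, since the index and the levels come from the same libraries. The length assumed for Pde6h, 5940 bases, is that of its longest annotated transcript, and which transcript is in use was not tested. The 4 genes with r near 0 had principal transcripts of 1359 (Arr3), 1846 (Gnb3), 3554 (Cnga3) and 4708 bases (Cngb3). Among the 10 genes, r thus did not rise or fall steadily with the assumed length. Opn1mw, with the shortest principal transcript at 1227 bases, had a negative r of -0.39.

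With the index as a covariate, an alternative added after these values were seen, Opn1mw remained past the threshold (log2 difference 0.40, edgeR adjusted p = 0.0175). Gnat2 did not (0.19, edgeR adjusted p = 0.101), nor did Gngt2 (-0.32, edgeR adjusted p = 0.152), and Pde6c turned to -0.12 (edgeR adjusted p = 0.476). This fit called 520 genes in place of 1747. The index comes from these same libraries and differs between the groups, so this fit cannot fully separate transcript length from the vector. The part of transcript length in the changes of Opn1mw, Gnat2 and Gngt2 was not tested.

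**Figure D4:**
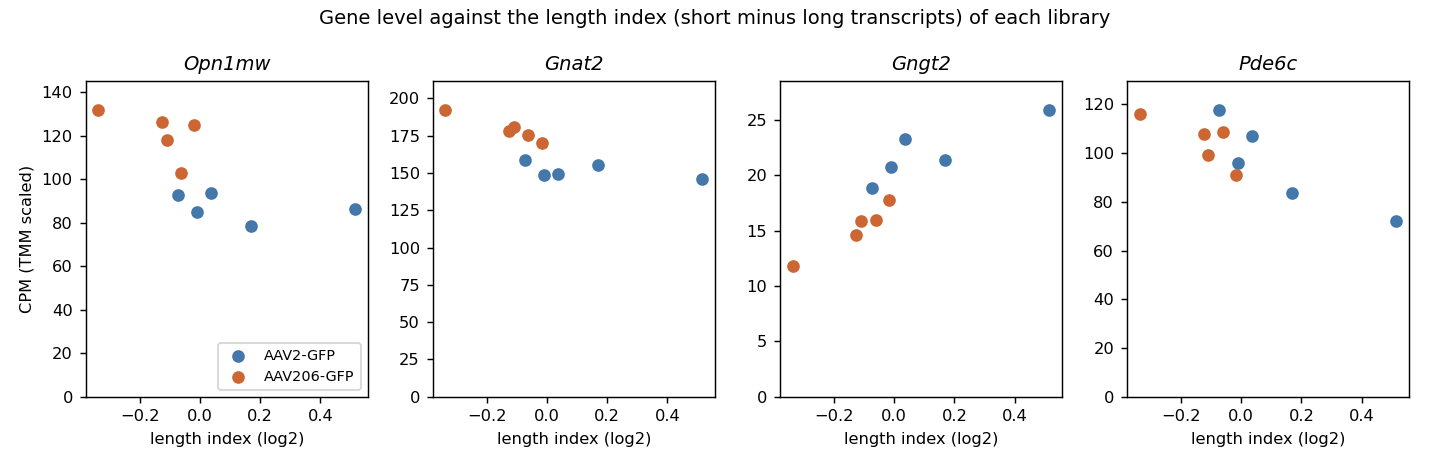
CPM of Opn1mw, Gnat2, Gngt2 and Pde6c in each library against the length index of that library, on the log2 scale. Gngt2 is highest (25.9 CPM) and Pde6c lowest (71.9 CPM) in AAV2-GFP replicate 3, which has the highest index (0.52). The indices of the groups overlap little.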

How the data were processed

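Per the submitters' processing notes, STAR 2.7.10b, RSEM 1.3.1 and the build mm10 were used, in roles not given in the sources used here. The authors deposited a table of estimated counts for each gene without scaling; 5.95% of values carried decimals (none in the 10 cone genes), and all were rounded, since the planned test takes whole counts. Totals were 10989843 to 12752604 per library, where 3 counts equal 0.232 to 0.274 CPM. Libraries of a group differed by 3.61 to 21.3 chi-square units per degree of freedom, more than sampling noise, so none was taken for a duplicate. The p-values measure spread between these libraries.

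In edgeR 4.0.16 (R 4.3.3), filterByExpr (minimum count 10), TMM and a quasi-likelihood F test were applied to all 10 libraries without covariates. Standard errors are the absolute log2 fold change over the square root of F, and intervals use the fit's degrees of freedom. Symbols, positions and lengths came from GENCODE M21 (GRCm38, the build mm10 denotes), promoters from RefSeq GRCm38.p6.

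The cone genes and the 15 other lists were chosen with earlier results of these data known. All cone genes, 9 rod counterparts and the regulators Thrb, Rxrg, Crx, Nr2e3 and Nrl are named, and of other lists at most 5 genes past the threshold; genes overlapping a cone gene and the remaining cone-enriched genes were named after their values were seen. Some genes are not reported here. Alternatives covered scaling, filters, DESeq2 1.42.0, limma-voom (limma 3.58.1), robust dispersions, truncation, covariates, the replicate number as a block and left-out libraries. The microglia and length covariates and the fit without AAV2-GFP replicate 1 and AAV206-GFP replicate 4 were added after seeing the data.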

Additional observations from a re-analysis of the deposited data

Results flagged for a closer look

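For 2 of the 22 group results examined (the 10 cone genes and the opsin ratio in each group of 5), 1 retina lay far from the rest: its distance from the closest retina took up most of the range of its group. About 1 in 20 groups exceeds the limit of 0.71 of the range by chance. Cnga3 was low in AAV206-GFP replicate 1, at 10.3 CPM against 14.8 to 16.4 CPM (0.740 of the range). Arr3 was high in AAV2-GFP replicate 2, at 114 CPM against 91.8 to 97.6 CPM (0.733 of the range).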

How the results depend on the processing

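The rise of Opn1mw kept its direction and its call in all 25 alternatives (log2 fold change 0.40 to 0.52), and the opsin ratio kept its direction in all 16 and its call in 15. The number of cone genes called was 3 or 4 in the 10 fits that left out 1 library. It fell from 3 to 1 with the interferon score, the microglia and macrophage score or the length index as a covariate, leaving Opn1mw, and to 2 without AAV2-GFP replicates 1 and 4, leaving Opn1mw and Gngt2. The cause was not tested. The number of genes called in all was 1747 and ranged from 991 to 1912 when 1 library was left out (991 without AAV2-GFP replicate 4, 1074 without AAV206-GFP replicate 2, 1056 without AAV206-GFP replicate 4). It was 567 with the interferon score, 1057 with the microglia score, 520 with the length index and 985 without AAV2-GFP replicates 1 and 4. Log2 fold changes turned sign for Cnga3 (-0.13 to 0.0199 with 1 library left out, the highest without AAV206-GFP replicate 1), Pde6c (-0.12 with the length index), Sag (-0.0107 without AAV206-GFP replicate 5, 0.0578 without AAV2-GFP replicate 1 and AAV206-GFP replicate 4) and Rxrg (-0.11 to 0.0176 with 1 library left out, 0.0215 with the microglia score and 0.0369 with the length index), none of which passed in any of these fits.

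The replicate numbers of the groups were checked for pairing. Deviations of same-numbered libraries from their group means correlated between -0.05 and 0.04, and no library matched its own number best in both directions. No pairing was thus seen, but the check cannot exclude that libraries of equal number shared some handling. With the replicate block 1085 genes passed, among them the same 3 cone genes. Among the other named genes the block ended the calls of Nr2e3 (edgeR adjusted p = 0.0545) and Vax2 (edgeR adjusted p = 0.0738). The opsin ratio under the block differed by 0.41 (exact sign flips of 5 pairs, p = 0.0625, the smallest they can give), so this design cannot pass the threshold. Depth limits mainly Cnga3, Cngb3 and Gngt2, which had 123 to 335 counts per library.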

Other observations

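The genes whose levels followed the cone opsins most closely within groups were named by a fixed rule, over the 10 libraries after each group's mean was subtracted and among 11910 genes averaging 5 CPM or more. For Opn1mw they were Tyw1, Wdr89, Fabp12, Ttc8 and Golim4, with Pearson r of 0.92, 0.91, 0.90, 0.90 and 0.90. For Opn1sw they were Rps6kc1, Baz1b, Nynrin, St7 and Slit1, with r of 0.97, 0.96, 0.92, 0.92 and 0.92. The opsins themselves had an r of 0.38 with each other. Among the cone genes, Opn1mw and Cnga3 had the highest r, 0.80, and Gnat2 and Gngt2, subunits of 1 transducin, the lowest, -0.89. AAV206-GFP replicate 1 was the lowest of its group for both Opn1mw (103 CPM) and Cnga3 (10.3 CPM), and their r without it was not computed. The points share library preparation and depth, and no test is given. With 11910 genes compared over only 10 libraries, the highest r values can be this large for unrelated genes too.

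Of 12 clock genes 4 passed with edgeR, all higher with AAV206-GFP (3 without TMM factors). This was 33.3%, against 5.95% of all tested genes called higher and 11.2% called either way. The summed level of the 12 was 1566 ± 63.4 and 1640 ± 51.4 CPM (SD, n = 5). The hour at which retinas were taken is not given in the sources used here, and the part of daily rhythm in the opsin levels was not tested.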
